A study of Mus musculus with 6 samples.

Results

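The cytosolic ribosomal protein genes of mouse regulatory T cell lineage cells were compared between cells with 1 and 2 lox copies of Dicer. The genes were taken by symbol: every probe set on the array annotated with a single gene symbol that starts with Rpl or Rps and a digit, together with Rpsa, Rplp0, Rplp1 and Rplp2, without the ribosomal S6 kinases (Rps6k) and pseudogenes. A probe set is a group of short probes that reads 1 transcript or several transcripts. The rule found 50 genes on 106 probe sets, of 18193 genes with a probe set of their own. Each gene is represented by the probe set with the highest mean log2 over all 6 arrays. The values are linear intensities after GCRMA, a procedure that models background from the sequence of each probe, scales the arrays to each other and merges the probes of a set into 1 value. A probe set was tested when its log2 value exceeded 4 on at least 3 arrays. By that filter 48 of the 50 genes were tested, all of them above it on all 6 arrays, among 13280 genes in all. A further 31 ribosomal protein symbols, among them Rpl3, Rpl5, Rpl10 and Rplp1, occur here only on probe sets that carry several symbols and were not analysed here.

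The RNA came from lymph node T cells that were sorted as CD4+ and YFP+, on 3 arrays per genotype, each lettered A, B or C. Both genotypes carried the FoxP3-GFP-hCre allele, in which Foxp3 drives Cre joined to GFP, and the ROSA26R-YFP reporter. The Het group was Dicerwt/lox and the KO group Dicerlox/lox. Cre is thus made where Foxp3 is active, and YFP stays on in cells in which Cre has once acted, so the gate can hold cells that no longer make Foxp3. The Het cells carry Cre and 1 lox allele of their own, and cells without Cre or a lox allele were not analysed here. Ages are not given in the labels. The labels do not say that the arrays of a group came from separate animals, so the p-values reflect how much these 6 samples vary, which may be technical variation alone.

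Each ribosome joins a large and a small subunit, and its proteins are needed in near equal numbers with the ribosomal RNAs. In T cells the demand for ribosomes climbs when a resting cell is activated and grows. Many mRNAs of ribosomal proteins begin with a run of pyrimidines (C or T in the DNA), through which the mTOR pathway and the RNA-binding protein Larp1 control their translation. Dicer cuts microRNA precursors, and microRNAs lower the stability and the translation of mRNAs that they pair with.

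The 30 bases around the annotated start of transcription were searched for such runs. RefSeq start windows (GRCm38.p6) were matched by symbol for 44 of the 50 genes, at 52 starts. Rpl7, Rpl8, Rps4l, Rps14, Rps20 and Rps29 were not matched. The windows below run from 15 bases before to 15 bases after the start, on the strand of the gene, with the longest run of C and T in capitals. They belong to 7 of the 8 genes with the lowest differences (the other, Rps19bp1, is no ribosomal protein), to 2 genes with higher KO means, Rpl13a and Rps6, and to the P stalk gene Rplp2.
Rpl7l1: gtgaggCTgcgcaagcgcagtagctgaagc
Rpl14: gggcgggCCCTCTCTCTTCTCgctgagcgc
Rpl12: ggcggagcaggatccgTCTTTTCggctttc
Rpl37: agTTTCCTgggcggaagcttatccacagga
Rpl27a: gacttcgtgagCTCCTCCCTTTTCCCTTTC
Rpl22l1: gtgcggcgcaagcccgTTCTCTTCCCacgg
Rps15: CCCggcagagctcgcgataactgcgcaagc
Rpl13a: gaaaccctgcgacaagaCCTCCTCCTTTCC
Rps6: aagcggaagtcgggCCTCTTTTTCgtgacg
Rplp2: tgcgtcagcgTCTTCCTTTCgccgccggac

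In order, these windows lie at chr17:46782642-46782671 (minus strand), chr9:120571502-120571531 (plus), chr2:32961697-32961726 (plus), chr15:5116598-5116627 (plus), chr7:109519180-109519209 (plus), chr3:28805493-28805522 (plus), chr10:80292416-80292445 (plus), chr7:45128731-45128760 (minus), chr4:86857353-86857382 (minus) and chr7:141447636-141447665 (plus). The longest run was 2 bases in Rpl7l1 and 3 in Rps15, against 14 in Rpl14, 19 in Rpl27a and 13 in Rpl13a. A run of 7 or more C or T bases stood in 24 of the 52 starts of the family (46.2%) and in 18.6% of all 32851 starts in the table. The letters CCGGAA, the core bound by ETS factors, searched on both strands of the 300 bases from 250 before to 50 after the start, were found at 28 of the 52 starts (53.8%) and at 14.9% of all starts. The letters AAGATGG, which resemble the site of the factor YY1, were found on either strand at 8 starts (15.4%) against 6.34% of all. A match on the C/T-rich strand of the ETS core can overlap a pyrimidine run. The longest run could lie before the annotated start, as in Rpl37 and Rps15, and so outside the mRNA that this start would give. An annotated start may lie some bases from the one used in these cells, and a match is a description of the letters only.

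The arrays were alike in scale. Their median intensities were 58.1 to 61.5. Pearson's r of log2 values across probe sets was 0.989 to 0.993 for arrays of the same genotype and 0.982 to 0.990 across genotypes. Precision is limited by the number of arrays, 3 per group. Of the Dicer1 probe sets, the one with the higher mean log2 averaged 1113 ± 78.5 for Het and 1090 ± 85.1 for KO (SD, n = 3), with overlapping groups. The other averaged 1228 ± 113 for Het and 861 ± 137 for KO, with every KO array below every Het array (log2 -0.52, limma adjusted p = 0.145). The position of either against the excised exons is unknown here, so they do not settle a check of the labels. Cd4 and Cd3e were bright on every array, while the Foxp3 intensities were 9960, 8945 and 9769 on the Het arrays, with 5453, 9417 and 5420 on the KO arrays, where KO B was the highest. These 3 genes belong to a list of 7 CD4 regulatory T cell markers, which did not share a direction. Of the 7, 4 were below 0 and 3 above, from -0.55 to 0.76 on the log2 scale, and none was called. In 2 every KO array was below every Het array (16.8% over all genes), and in 2 above (13.2%). Summed over their lists, the B cell markers Ms4a1, Cd79a and Cd79b reached 1609 on Het B and 2035 on KO B against 506 to 818 elsewhere, and the CD8 T cell markers Cd8a and Cd8b1 2257 and 4415 against 636 to 909. NK cell markers (2 of 3 above the filter) summed to 622 to 1388 in Het and 1885 to 3225 in KO, and myeloid markers (3 of 5 above it) to 239 to 632 and 1123 to 2865. The myeloid sums followed Mpeg1 (log2 4.61, limma adjusted p = 0.0421) and Lyz2 (log2 2.09, not past the threshold), while Csf1r read 152 to 164 in Het and 156 to 174 in KO. Ncr1, Cd14 and Itgam were below the filter, as were both erythroid markers on the array. In bulk RNA, fewer cells of a type and less RNA per cell cannot be told apart.

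As a family the ribosomal protein genes differed little between the genotypes. By limma, 1 of the 48 genes fell in KO, Rpl7l1, and 0 rose, at an adjusted p under 0.05. Over all genes tested, 0.956% were called lower and 1.37% higher, and 1.78% of all probe sets were called in either direction. At an unadjusted p under 0.05, 9 of the 48 were lower and 0 higher, where 11.6% of all genes were lower. The difference was below 0 for 39 genes (56.6% over all genes tested) and above 0 for 9. Of the 48, 36 lay within 0.2 of 0 on the log2 scale. Their median difference was -0.09, beside -0.03 over all genes. In 22 of the 48 every KO array was below every Het array, and in 1, Rpl13a, every KO array was above. Over all genes these shares were 16.8% and 13.2%. The spread between replicate arrays was small, with a median pooled SD of 0.072 on the log2 scale against 0.16 over all genes. That comparison was not matched for brightness, and the part of the spread in the separation of the groups was not tested.

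**Figure D1:**
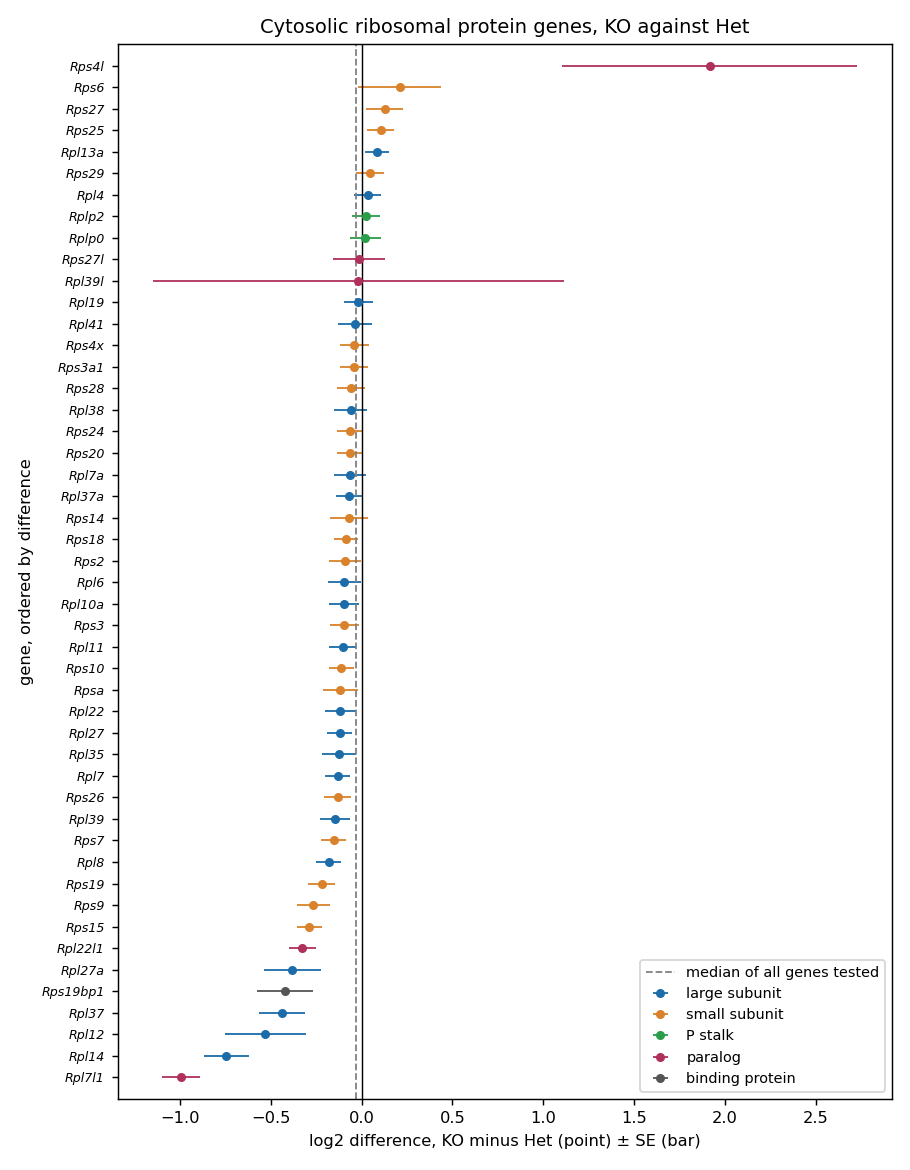
The plot gives the log2 difference, KO minus Het, on the horizontal axis for each of the 48 genes tested, with the SE as a bar and the colour for the role of the protein. Most points lie just left of 0, Rpl7l1 lies furthest left at -0.99, and the wide bars of Rpl39l and Rps4l show how far their replicate arrays differed.

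The array-by-array values show how far the family's shift rests on the B arrays. For each gene the log2 value was set against its own mean over the 6 arrays, and the median over the 48 genes was taken. It was -0.01 on Het A, 0.11 on Het B and 0.03 on Het C, and -0.04, -0.08 and -0.03 on KO A, B and C. Het B was thus the highest and KO B the lowest. On Het B 42 of the 48 genes were above their own mean, and on KO B 9 were. The medians over all genes were -0.03 on Het B and 0.01 on KO B. Without Het B the family's median difference was -0.05, the same as that of all genes (-0.05). Then 32 of the 48 genes were below 0, beside 59.2% of all genes. In 22 every KO array was below every remaining Het array, as were 30.7% of all genes. Without KO B it was -0.06 beside -0.04 for all genes. Without both B arrays it was -0.02 beside -0.06, so that the family was then shifted down less than all genes were. The 42 structural members summed to 3.95%, 4.07% and 3.92% of all signal on Het A, B and C and to 3.75%, 3.66% and 3.70% on KO A, B and C. These sums did not overlap between groups, with Het B or without it, and brighter probe sets weigh more in them.

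Measures of RNA quality and of other cells also differed between these arrays. The ratio of 3′ to 5′ signal of beta-actin, which climbs when RNA is degraded or copied short, was 1.70, 1.50 and 1.93 on Het A, B and C and 1.41, 2.15 and 1.50 on KO A, B and C. The same ratio of Gapdh was 1.33, 1.37 and 1.49 for Het and 1.24, 1.59 and 1.31 for KO. Both ratios were highest of all on KO B and lowest of all on KO A. Among the Het arrays, the actin ratio was lowest on Het B and the Gapdh ratio on Het A. The markers of B cells and CD8 T cells were high on both B arrays, whose ribosomal protein medians lay at opposite ends. The part of either in the family's shift was not tested.

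**Figure D2:**
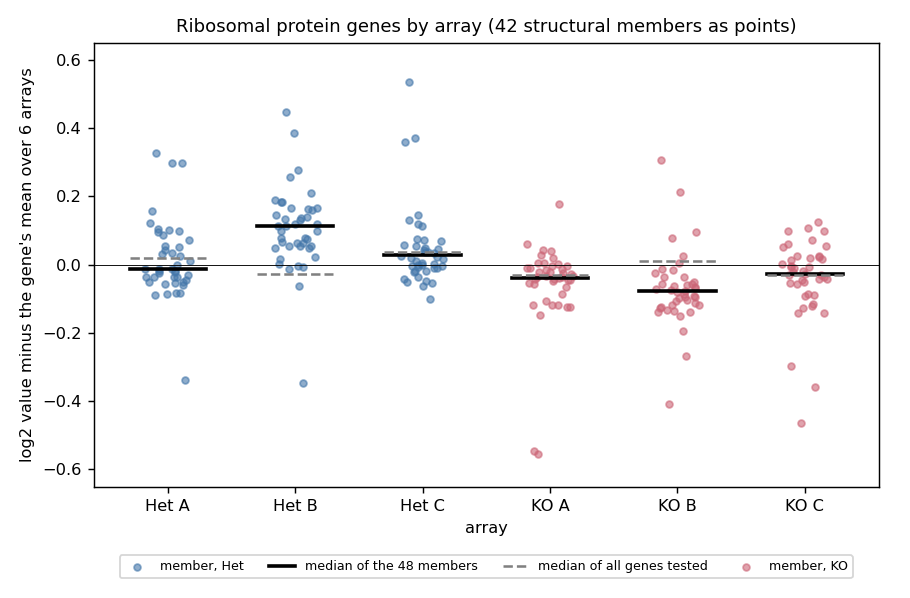
Each point is 1 of the 42 structural members on 1 array, drawn as its log2 value minus the gene's own mean over the 6 arrays, with the array on the horizontal axis. The black line is the median of the 48 genes tested and the dashed line that of all genes tested; the black line is highest on Het B at 0.11 and lowest on KO B at -0.08.

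Rpl7l1 was the member past the threshold. It encodes a paralog of Rpl7 that is linked to assembly of the large subunit. Its probe set read 4708, 4112 and 4904 on Het A, B and C and 2482, 2201 and 2203 on KO A, B and C. Every KO array was near the same level and below every Het array. The means were 4575 ± 412 in Het and 2295 ± 162 in KO (SD, n = 3), which is 1.99-fold lower in KO (log2 difference -0.99, SE 0.10, adjusted p = 0.0247 by limma). A second probe set of the gene read 1990, 1859 and 1928 in Het, against 1378, 1269 and 1331 in KO, again without overlap, and also passed the test (log2 -0.54, limma adjusted p = 0.0417). The dimmest of its 3 probe sets read 222, 381 and 240 in Het, with 235, 341 and 238 in KO, where the groups overlapped (log2 -0.03). The size of the fall held when each array was left out in turn (-1.07 to -0.94), but the adjusted p was then 0.0522 to 0.104, and it was 0.146 without both B arrays (limma). Over all probe sets the number called dropped from 525 to between 0 and 176 in those fits.

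Other members of the large subunit mostly had differences below 0, and none passed the test. Of 20 tested, 18 had a difference below 0 (56.6% over all genes), with a median of -0.11 and a range of -0.75 to 0.08. In 10 the groups did not overlap with KO below, and in 1, Rpl13a, with KO above, where the shares over all genes were 16.8% and 13.2%. At an unadjusted p under 0.05, 3 of the 20 were lower, as were 11.6% of all genes.

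Rpl14, a protein of the large subunit, came closest to the threshold. It read 1068, 1017 and 1235 on Het A, B and C and 580, 707 and 693 on KO A, B and C, so every KO array was below every Het array. On the log2 scale KO differed by -0.75 (SE 0.12, limma adjusted p = 0.0541). It passed under 4 of the other settings tried, namely a stricter filter (0.0457), quantile normalization (0.0434), array weights (0.0399) and averaged probe sets (0.0354), all by limma. With each array left out in turn, its log2 difference was -0.80 to -0.66.

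Rpl12, which sits at the base of the stalk that recruits elongation factors, read 1733, 1845 and 1527 in Het, against 966, 1635 and 1023 in KO. KO B lay within the Het range and the other KO arrays far below it (log2 -0.53 ± 0.22, SE). Rpl37 read 10386, 8458 and 10856 in Het, with 7627, 7617 and 6597 in KO, with no overlap, though Het B was not far above the KO arrays (log2 -0.44). Rpl27a read 304, 399 and 307 in Het, against 285, 220 and 268 in KO, also without overlap, with Het B high and KO B low (log2 -0.38). Rpl8 read 32363, 31686 and 33396 in Het, with 28108, 28993 and 28745 in KO, a tight separation by a log2 of -0.18.

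Several large subunit proteins have known roles beside translation. Rpl11, which as part of the 5S ribonucleoprotein can bind Mdm2 and so stabilise p53, read 53194, 58378 and 55586 on the Het arrays, against 52037, 51258 and 52131 on the KO arrays (log2 -0.10). Its groups did not overlap, but KO C was close below Het A. Rpl22, needed for the development of alpha beta T cells, read 40841, 46901 and 41662 in Het, against 40137, 38439 and 40502 in KO (log2 -0.12), where Het B stood apart. Rpl38, known for its part in translation of Hox mRNAs, gave -0.06 and Rpl10a -0.10, both with overlapping groups, and Rpl38 was 0.03 without both B arrays.

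Rpl13a, which also serves in an interferon gamma-activated complex that blocks translation, was the 1 member with every KO array above every Het array. It read 109014, 112000 and 108218 in Het, with 116230, 114875 and 117663 in KO, which is 0.08 on the log2 scale, not past the threshold (95% interval -0.08 to 0.25). Its 3 other probe sets gave -0.09, -0.37 and 0.04. Their mean with the first was -0.08, so its direction depended on the probe set. Rpl4, at the wall of the peptide exit tunnel, gave 0.03 with overlapping groups.

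The P stalk proteins, which contact the elongation factors, stayed near 0. Rplp0 read 79078, 87975 and 84006 in Het, against 83962, 80398 and 90009 in KO, a log2 difference of 0.02 with a 95% interval of -0.19 to 0.23. Rplp2 read 95984, 105681 and 96551 in Het, with 101569, 97673 and 103721 in KO, also 0.02, with an interval of -0.17 to 0.22. In both genes the arrays of the groups were interleaved, and the sign turned when 1 array was left out.

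Among 21 genes of the small subunit 20 were tested, and none passed the threshold. The difference was below 0 for 16 (56.6% over all genes) and above 0 for 4. The median was -0.08, with a range of -0.29 to 0.21. At an unadjusted p under 0.05, 3 of the 20 were lower, as were 11.6% of all genes. In 9 every KO array was below every Het array, as in 16.8% of all genes.

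Rps15, which lies in the head of the small subunit, had the lowest difference of the small subunit genes. It read 68400, 67274 and 67850 on Het A, B and C and 56279, 53654 and 56642 on KO A, B and C. The replicates were tight and the groups far apart relative to them. On the log2 scale KO differed by -0.29 (SE 0.07, limma adjusted p = 0.106), and with an intensity trend and robust estimation it passed (limma, adjusted p = 0.0348). Its second probe set, less bright, gave -0.17, and there Het A at 24173 was barely above KO C at 24143.

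Rps9 read 120286, 136094 and 114173 on the Het arrays, against 103426, 102017 and 101729 on the KO arrays (log2 -0.27), with the Het arrays spread and the KO arrays close together. Its other tested probe sets each gave 0.04 with overlapping groups, so its direction depended on the probe set. Rps19, the gene most often mutated in Diamond-Blackfan anaemia, read 60841, 62812 and 57677 in Het, against 51993, 52018 and 51495 in KO (log2 -0.22). Every KO array of Rps19 lay below every Het array. Rps26, near the mRNA exit channel, read 61288, 68173 and 65185 in Het, with 59505, 58320 and 59496 in KO, with Het A close to the KO arrays (log2 -0.13).

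Rps3, at the mRNA entry channel and also known in DNA repair, gave -0.10, and KO A at 47157 was just below Het C at 47167. Its direction was not stable between probe sets, since its other tested probe set, a plain one, gave 0.19 and the mean of both gave 0.05. Rpsa, also known as the laminin receptor, read 31992, 37932 and 32928 on the Het arrays, against 31901, 29837 and 32896 on the KO arrays (log2 -0.12). Het B was the highest array, and KO C lay within the Het range.

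The small subunit genes with KO means above Het did not pass the test either. Rps6, the substrate of the S6 kinases, read 1877, 1863 and 3067 in Het, with 2295, 2935 and 2461 in KO. Het C was the highest array of all 6, and the log2 difference of 0.21 ± 0.23 (SE) was smaller than its error. Rps27 read 392, 413 and 387 in Het, against 469, 384 and 452 in KO (log2 0.13), and Rps25 read 1879, 1870 and 1907 on the Het arrays, against 1906, 2090 and 2091 on the KO arrays (log2 0.10). In both a single KO array lay within or below the Het range. Rps29 gave 0.05 with overlapping groups, and its other probe sets -0.02 and -0.05. Rps16 was not tested, since its probe set read 3.74 to 4.02 on all 6 arrays and gives no level for the gene.

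The paralogs, copies related to a ribosomal protein gene and often restricted to a tissue, spread more than the structural genes. Of 6, Rpl3l, the muscle form of Rpl3, read 6.69 to 7.40 on all arrays and was not tested. Among the other 5, 4 had a difference below 0 and 1 was called, Rpl7l1. Rpl22l1, the paralog of Rpl22, read 45144, 46556 and 42092 in Het, with 35799, 35022 and 35808 in KO. Every KO array was below every Het array, and the KO arrays differed by less than the Het arrays did (log2 -0.33 ± 0.08, SE; limma, adjusted p = 0.0996). With an intensity trend and robust estimation it passed (limma, adjusted p = 0.0476).

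Rps27l, which p53 induces, read 19012, 22660 and 23813 in Het, against 20274, 25121 and 19529 in KO, interleaved (log2 -0.01). Rps4l, a paralog of Rps4x, read 52.6, 78 and 302 in Het, with 213, 359 and 872 in KO. KO C was the highest and Het A the lowest, and Het C lay above KO A. The log2 difference of 1.92 ± 0.81 (SE) did not pass (limma, adjusted p = 0.282). Rpl39l, best known from testis, read 152, 420 and 703 in Het, against 158, 151 and 1805 in KO, so that KO C alone was high and the log2 difference of -0.02 had an SE of 1.13. Array C was the highest of its group for both of these dim genes.

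Paralogs were then set against their parent genes within each array, as a log2 ratio whose change between genotypes, not its level, can be read. The Rpl7l1 to Rpl7 ratio was -4.07, -4.29 and -4.03 on Het A, B and C and -4.83, -5.08 and -5.07 on KO A, B and C. The ratio was 0.86 lower in KO (difference -0.86), and Rpl7 itself differed by -0.13. With the mean of each gene's probe sets the ratio differed by -0.39 and Rpl7l1 by -0.52, since the flat probe set of Rpl7l1 then counts equally. The ratio of Rpl22l1 to Rpl22 was 0.14, -0.01 and 0.01 in Het and -0.17, -0.13 and -0.18 in KO (difference -0.21). Neither ratio overlapped between groups, and each had the smallest p that 3 against 3 allows (exact permutation test, two-sided, p = 0.1, and 0.25 adjusted over 5 pairs), so this design cannot take them past the threshold. The differences for the other pairs were -0.14 for Rps27l to Rps27 (exact permutation p = 0.6), 0.13 for Rpl39l to Rpl39 (p = 0.8, exact permutation) and 1.96 for Rps4l to Rps4x (exact permutation p = 0.2), all with overlapping groups.

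**Figure D3:**
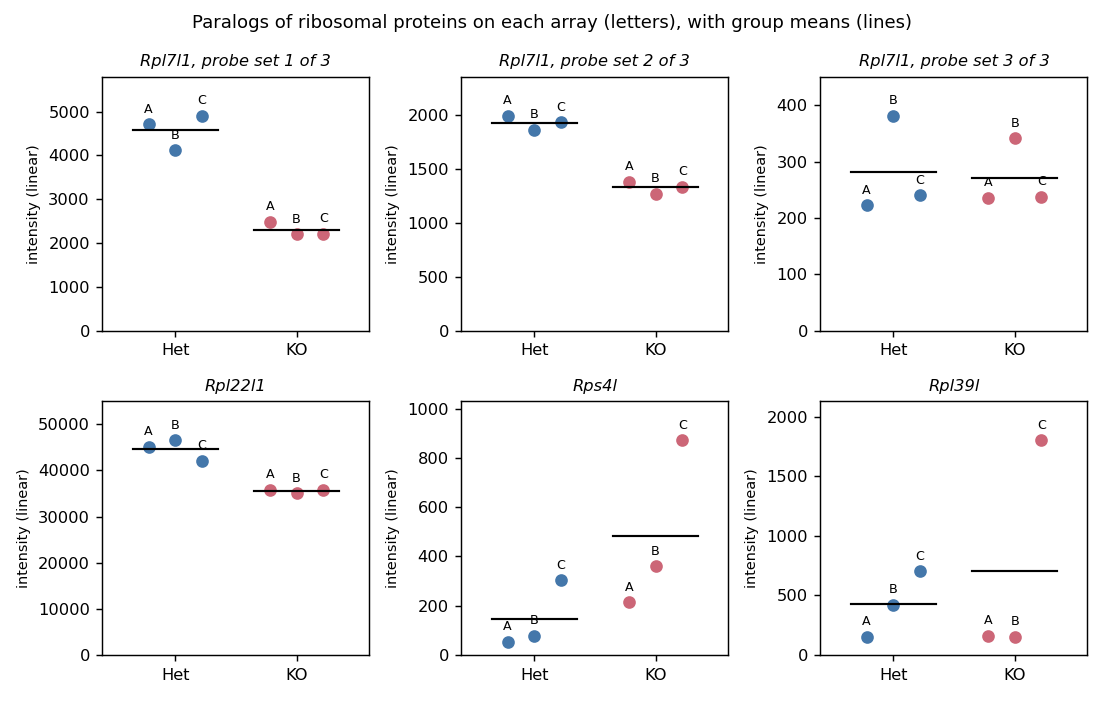
Linear intensity is plotted on the vertical axis for the 3 probe sets of Rpl7l1 and for Rpl22l1, Rps4l and Rpl39l, with 1 point per array (letters A to C) and a line at the group mean. The KO arrays of Rpl7l1 lie below the Het arrays on 2 of its 3 probe sets, Rpl22l1 separates without overlap, and the high KO value of Rpl39l is array C at 1805.

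Rps19bp1 is included by its symbol only: it encodes a protein that binds Rps19 and is not part of the ribosome. It read 908, 933 and 1050 in Het, with 590, 854 and 737 in KO, with every KO array below every Het array and KO B near them (log2 -0.42 ± 0.16, SE). Without the 6 paralogs and Rps19bp1, 0 of 42 structural genes were called in limma, and the median stayed at -0.09. At an unadjusted p under 0.05, 6 of them were lower (11.6% over all genes) and none was higher.

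The median difference varied with the class of probe set. The array names probe sets by how specific they are: a plain name stands for probes unique to 1 transcript, and the suffixes a, s and x for probes shared within a gene, shared between genes, or prone to cross-hybridise. Ribosomal proteins have many processed pseudogene copies, and 34 of the 48 tested genes rest on a suffixed probe set. Of the 100 probe sets tested 79 were below 0. The median was -0.02 over 30 plain probe sets (19 below 0), -0.09 over 28 with suffix a (24 below 0) and -0.07 over 39 with suffix x (34 below 0). With plain probe sets alone 25 genes remained, and their median was -0.02, beside -0.03 for all genes so restricted. In 8 of the 25 every KO array was below every Het array, as in 15.7% of all genes so restricted. The 24 tested probe sets with a mean log2 under 11 also had a median of -0.02, and class was not separated from brightness. Of 21 genes with 2 or more tested probe sets, 8 had both signs. The 36 genes whose probe set had a mean log2 above 14 lay between -0.33 and 0.08, while the 12 others ranged from -0.99 to 1.92. Those 12 include Rpl7l1, Rpl14, Rpl12, Rpl37, Rps19bp1 and Rpl27a, which had the lowest differences of the family. All of these but Rpl37 stand on plain probe sets. The highest intensity in the whole table was 170023, and how far the brightest probe sets are compressed was not tested.

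Other genes of protein synthesis were described beside the family by lists. The 76 genes of mitochondrial ribosomal proteins, which build the separate ribosome of that organelle, had a median difference of -0.21. The difference was below 0 for 66 of them (56.6% over all genes). None passed the test. At an unadjusted p under 0.05, 29 had lower and 0 higher values in KO, where 11.6% of all genes were lower. In 34 every KO array was below every Het array, as in 16.8% of all genes. Both of its subunits showed this, with a median of -0.19 over 47 large subunit genes (39 below 0) and -0.22 over 29 small subunit genes (27 below 0). Mrps6 of the small subunit read 3698, 3481 and 4724 in Het, against 2299, 2474 and 2421 in KO (log2 -0.71; limma, adjusted p = 0.0659), and Mrps21 read 5519, 5580 and 6808 on the Het arrays, against 4012, 4047 and 3598 on the KO arrays (log2 -0.61). Both were separated without overlap. Leaving out each array in turn gave list medians of -0.26 to -0.13, the latter without KO A, and the median was -0.27 without both B arrays. This list, unlike the cytosolic family, thus did not move toward 0 without the B arrays, but the difference between the lists was not tested.

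Ribosome biogenesis factors, which process ribosomal RNA and assemble subunits in the nucleolus, had a median of -0.17. Of 53, 44 were below 0 (56.6% over all genes). The median was -0.09 without KO A and -0.26 without KO B. The list held 1 called gene, Dkc1, encoding the enzyme of pseudouridine formation in ribosomal RNA, on a probe set with suffix s. It read 10425, 11334 and 10608 in Het, with 7677, 7517 and 7160 in KO, clearly separated (log2 -0.53; limma, adjusted p = 0.0424, and 0.0921 to 0.138 with each array left out in turn). Of 16 genes of RNA polymerase I and its factors, which transcribe ribosomal DNA, 11 were below 0 (56.6% over all genes). Their median was -0.15 and none passed. With the mean of each gene's probe sets that median was -0.05. Its subunits Znrd1 (3009, 3168 and 3341 in Het against 1870, 2323 and 1824 in KO, log2 -0.67) and Polr1b (912, 900 and 717 against 436, 568 and 485, log2 -0.76) had no overlap.

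Among 23 regulators of ribosomal protein mRNAs and of Rps6, 1 fell and 1 rose, and the median was -0.03 (0.03 without KO C). At an unadjusted p under 0.05 by limma, 5 were higher and 3 lower, where 11.6% of all genes were lower. The share of all genes that was higher was not counted. Every KO array was above every Het array in 5 (13.2% over all genes) and below in 4 (16.8%). Mtor (log2 0.39) and Larp1 (log2 0.54) were among the 5 above, and Cnbp (log2 -0.48) and Tsc1 (log2 -0.35) among the 4 below. Of Mtor, Larp1, Cnbp and Tsc1 none passed the test, and Cnbp came closest (limma, adjusted p = 0.0607). Eif4ebp1, which holds back the cap-binding factor until mTOR phosphorylates it, read 814, 779 and 939 in Het, against 447, 530 and 479 in KO (log2 -0.80; limma, adjusted p = 0.0417). Rps6ka5 read 680, 720 and 558 on the Het arrays, against 1119, 1418 and 1325 on the KO arrays (log2 0.98; limma, adjusted p = 0.0424). It encodes the kinase MSK1, which is known for phosphorylating histones and nuclear factors and not for acting on the ribosome. Neither overlapped between groups, and neither passed when any of the 6 arrays was left out. The limma adjusted p was then 0.0737 to 0.134 for Eif4ebp1 and 0.0679 to 0.138 for Rps6ka5. Eif4ebp1 stands on a probe set with suffix x, and over all settings tried its log2 difference was -0.92 to -0.50.

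The factors that work on the assembled ribosome had medians near 0, whose signs turned under some settings. Of 30 initiation factors, 15 were below 0 and 15 above, with a median of 0.01, and none passed the test. Eif2s3x, a subunit of the factor that brings the initiator tRNA, read 10164, 9980 and 9955 in Het, against 8528, 9104 and 8050 in KO (log2 -0.23), though its plain probe set alone gave 0.09. Eif3c read 11614, 13405 and 12993 on the Het arrays, with 14132, 16193 and 16155 on the KO arrays (log2 0.29). Of 13 elongation and release factors 7 were below 0, the median was -0.01 and none passed. Eef1d read 32933, 23444 and 25992 in Het, against 18679, 20153 and 16525 in KO (log2 -0.56). It stands on a probe set with suffix x, and over all settings tried its log2 difference was -0.74 to -0.22. The termination factor Etf1 read 2029, 1975 and 2037 on the Het arrays, against 2228, 2760 and 2616 on the KO arrays (log2 0.33).

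Cytosolic tRNA synthetases, which charge tRNAs with amino acids, had a median of 0.12, with 10 of 18 above 0. At an unadjusted p under 0.05 by limma, 6 were higher and 0 lower. Of all genes 11.6% were lower at that p, and the share that was higher was not counted. Every KO array was above every Het array in 7 (13.2% over all genes) and below in 1 (16.8%). The largest difference was that of Vars, without overlap (log2 1.81; limma, adjusted p = 0.0781). The median was 0.06 without Het A and 0.07 without KO B. The called gene was Wars, the tryptophan enzyme and also a gene that interferon gamma induces, on a probe set with suffix x. It read 857, 866 and 969 in Het, with 1774, 2240 and 2383 in KO, with the highest Het array far below the lowest KO array (log2 1.24; limma, adjusted p = 0.0253). Without KO A it still passed (limma, adjusted p = 0.0366), and with any of the others left out it did not (up to 0.105). Fau, which encodes a ribosomal protein fused to a ubiquitin-like one, was the single gene measured of 4 with other names, and it read 39266, 43825 and 39298 in Het, against 40820, 37613 and 41539 in KO (log2 -0.03), with Het B highest and KO B lowest.

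**Figure D4:**
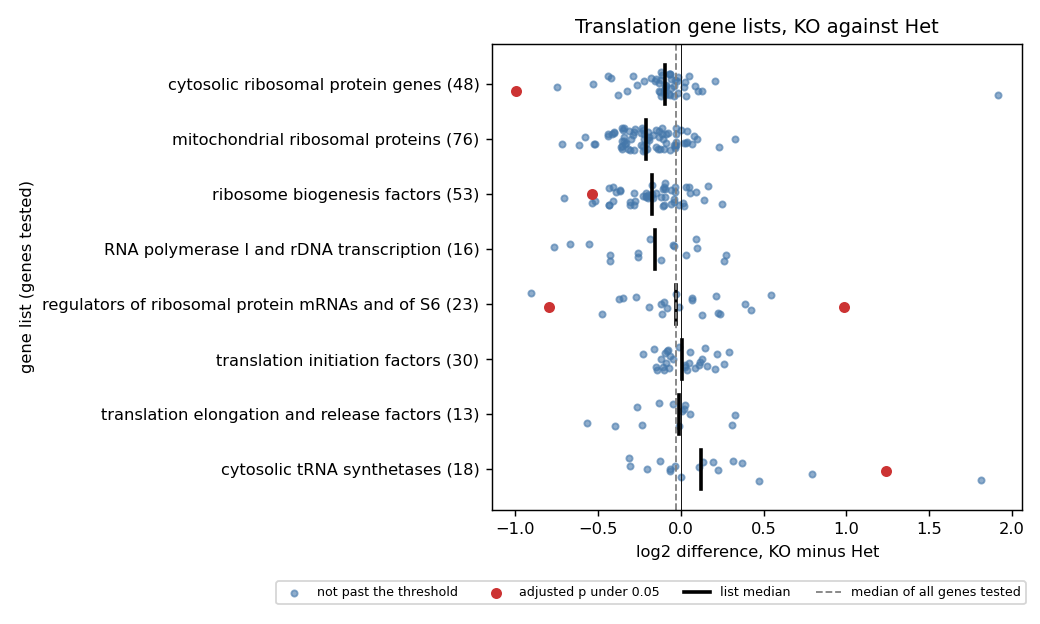
The log2 difference, KO minus Het, is plotted on the horizontal axis for every gene tested of the ribosomal protein family and 7 other lists, with genes past the threshold in red, the list median as a black bar and the median of all genes as a dashed line. The bar of the mitochondrial ribosomal proteins lies at -0.21 and that of the cytosolic family at -0.09, with single red points for Rpl7l1, Dkc1 and Wars and a pair for the regulators.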

How the data were processed

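RNA from 6 samples was measured on expression arrays. The authors deposited 1 intensity per probe set, and the labels name GCRMA as the normalization, without a version. Values ran from 1.23 to 170023 and so were read as linear and converted to log2. Of 45101 probe sets, 64 controls and 1 with a missing value were dropped, and the 29507 above log2 4 on at least 3 arrays entered limma 3.58.1 (R 4.3.3; eBayes moderation, two-sided, genotype as the only term), with Benjamini-Hochberg adjustment over all of them and a threshold of 0.05. The steps were tested on simulated data. Symbols came from the platform annotation table. Paralog ratios were compared by exact permutation.

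The genes and lists were chosen with earlier results of these data known. Genes named are those past the threshold, the 8 highest and 8 lowest differences, the 4 most variable, the untested, the paralogs with parents and members of known role; lists name up to 4 past the threshold or 2 otherwise. Rps9, Rpl8, Mtor, Larp1, Cnbp, Tsc1, Vars and the marker genes were named outside these rules, after their values were seen. Alternatives were other filters, normalizations, error models, probe set choices, a block on the letter and leaving out arrays; the fit without the paralogs was added after seeing the data.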

Additional observations from a re-analysis of the deposited data

How the results depend on the processing

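Directions and calls rest on few arrays. By limma the 525 probe sets called became 957 with array weights, 0 with the replicate block, 0 without both B arrays and 0 to 176 with each array left out in turn. The count of ribosomal protein genes called lower went from 1 to 2 under the stricter filter, quantile normalization, array weights and the mean of probe sets, to 3 with an intensity trend and robust estimation, and to 0 with the replicate block, without both B arrays and in each fit without 1 array (0 to 0). Without the paralogs it was 0 by construction, since the called gene, Rpl7l1, is a paralog. The count called higher was 0 throughout. The family's median moved to -0.020 with plain probe sets only and to -0.019 without both B arrays. The cause of these changes was not tested. The labels do not say whether same-lettered arrays of the 2 genotypes are pairs. Their deviations correlated at 0.28 for A, -0.17 for B and 0.01 for C, which cannot decide this with 3 letters.

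Signs turned for a few named genes, none of them past the threshold. With array weights Rpl39l gave 0.58 and Fau 0.0098, with the mean of probe sets Rps29 gave -0.0076, Rpl13a -0.081 and Rps3 0.049, and with plain probe sets Rps3 gave 0.19 and Eif2s3x 0.094. Without both B arrays Rps6 gave -0.014, Rpl39l 0.71, Rps4x 0.027, Rpl38 0.028 and Fau 0.068. With each array left out in turn, the ranges spanned 0 for Rplp2 (-0.00081 to 0.069), Rplp0 (-0.025 to 0.056), Rpl39l (-1.20 to 0.59), Rps27l (-0.13 to 0.055), Rps4x (-0.069 to 0.0085), Rpl38 (-0.10 to 0.0040), Fau (-0.056 to 0.024) and the ratio of Rpl39l to Rpl39 (-1.06 to 0.73). The ratios were not run with the block, the trend or the weights. Dim signal limits Rps4l, Rpl39l, Rpl3l and Rps16, and 3 arrays per group limit every p. Rpl27a (mean log2 8.19), Rps27 (8.70) and Rpl39 (8.79) were about as dim as Rpl39l (8.46).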
